A study of Mus musculus with 2 samples.

Results

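The genes described here are 35 transcripts of dividing cells, 12 that act in S phase, when DNA is copied, and 23 that act in mitosis, when chromosomes and then the cell are divided. They were taken by name from a fixed list and matched by Entrez gene identifier to the 16174 genes in the deposited tables, and all 35 were listed in both libraries. The tables come from RNA sequencing of interscapular brown fat, a depot that burns lipid for heat, of female C57BL/6 mice aged 45 weeks that had been fed chow throughout. There were 2 libraries, 1 per genotype. The control library has the genotype D3Bfl/fl, floxed D3B alleles with no Cre named. The knockout library has the genotype D3Bfl/fl-UCP1-Cre+/-, the same floxed alleles with 1 copy of a Cre recombinase under the promoter of Ucp1. By design this Cre acts in brown adipocytes and leaves the allele whole in the other cells of the tissue. The cells in which it acted were not measured here. D3B is read here as the DNA methyltransferase gene Dnmt3b, from knowledge of the study. The number of mice in a library is not given in the labels.

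In S phase the MCM helicase opens the DNA, the clamp Pcna holds the polymerases on it, and ribonucleotide reductase, thymidylate synthase and thymidine kinase supply nucleotides. In mitosis the kinase Cdk1 with cyclins A and B drives entry, the Aurora and Polo kinases build the spindle, the checkpoint kinases wait for every chromosome to be attached, and Cdc20 and Ube2c then direct the anaphase-promoting complex to destroy the cyclins. Transcripts of both phases are low in resting tissue. Mature brown adipocytes rarely divide, while preadipocytes, endothelial cells and immune cells of the depot can.

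With 1 library per genotype the spread between mice is unknown and nothing can be tested, so all differences below are between these libraries. The control library held 9666528 expected counts and the knockout library 10068359, so that 1 count was worth 0.103 CPM (counts scaled to the library total) in the control and 0.0993 CPM in the knockout library. A count of 0 allows up to 3 counts, or 0.310 CPM in the control and 0.298 CPM in the knockout library. Each ratio is the knockout level over the control level in CPM, followed by its exact 95% interval, which covers counting error only and is too narrow where PCR copies were counted. The run names put the control on lane 2 and the knockout on lane 1, so genotype, Cre transgene and lane cannot be told apart. Dnmt3b itself had 15 control and 7 knockout counts, a ratio of 0.448 (0.155 to 1.17) that does not settle whether it was lower. The label of brown fat held, with Ucp1 at 4987 and 4271 FPKM, a level per length of transcript, and Cidea at 2925 and 2390 FPKM (control, knockout).

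The mitosis genes as a sum were higher in the knockout library, and the S phase genes as a sum were close to level. The 23 mitosis genes summed to 468 control and 714 knockout counts, or 48.4 and 70.9 CPM, a ratio of 1.47 (1.302 to 1.65). The 12 S phase genes summed to 1660 and 1800 counts, or 172 and 179 CPM, a ratio of 1.04 (0.973 to 1.11). Most of the control S phase counts came from Pcna (428), Tyms (393.53) and Rrm1 (312), so the sum mainly reflects these genes. Leaving out each S phase gene in turn gave ratios from 1.01, without Mcm6, to 1.08, without Tyms. For every 100 S phase counts there were 28.2 mitosis counts in the control and 39.7 in the knockout, and the proportion of mitosis to S phase counts was 1.41-fold larger in the knockout library (1.23 to 1.61), a comparison that does not depend on library size. Bulk tissue does not tell more dividing cells from more of these transcripts per cell. The mitosis ratio depended on how genes were weighted: summed as FPKM, where short transcripts such as Cenpa and Ube2c weigh more, it was 1.25, from 22.3 to 28.0 FPKM. The S phase sum of FPKM went from 76.4 to 79.6, a ratio of 1.04.

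**Figure D1:**
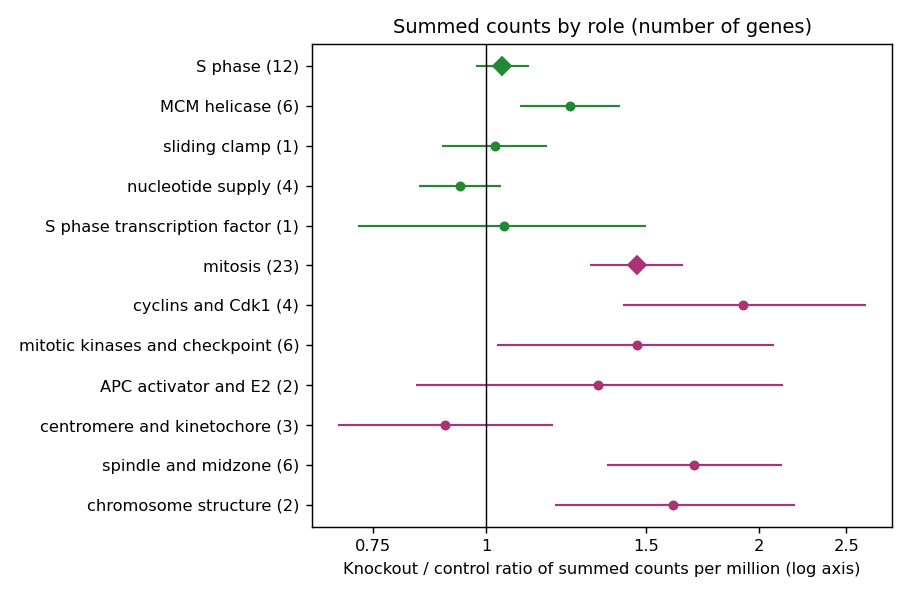
Ratio of summed CPM, knockout over control (horizontal log axis), for the S phase and mitosis genes (diamonds) and for each role (circles), with the number of genes in brackets and bars for the exact 95% counting interval. The mitosis sum lies at 1.47 with an interval above 1, the S phase sum at 1.04, and among the mitosis roles the centromere and kinetochore genes alone lie below 1, at 0.899.

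The promoters of both phases are shown because they are how these gene sets are known to be told apart: S phase genes are commonly bound by E2F factors, and mitosis genes by the MuvB complex at an element called CHR, often beside CCAAT boxes bound by NF-Y. RefSeq promoter windows of the assembly GRCm38.p6 matched 30 of the 35 genes. The genes Aurkb, Ccna2, Kif20a, Mcm4 and Tpx2 had no entry. The 250 bases before the first listed start were searched on both strands for CHR, spelled TTTGAA or in its other form TTTAAA, for the CCAAT box and for E2F, spelled TTCCCGC in its first form, TTCGCGC in its next, then TTGCCGC and, as the last form searched, TTGGCGC. Matches are printed in capitals, those of Mcm6 overlapping on opposite strands. The mitosis genes shown first are Cdk1 (chr10:69352913-69353162 on the minus strand), Ccnb2 (chr9:70421555-70421804 on the minus strand) and Cdc20 (chr4:118437344-118437593 on the minus strand), chosen after their values were seen because they had large ratios, and then Cenpa (chr5:30666636-30666885 on the plus strand) and Mki67 (chr7:135716380-135716629 on the minus strand), which had the most counts among mitosis genes with an entry and a match.
Cdk1: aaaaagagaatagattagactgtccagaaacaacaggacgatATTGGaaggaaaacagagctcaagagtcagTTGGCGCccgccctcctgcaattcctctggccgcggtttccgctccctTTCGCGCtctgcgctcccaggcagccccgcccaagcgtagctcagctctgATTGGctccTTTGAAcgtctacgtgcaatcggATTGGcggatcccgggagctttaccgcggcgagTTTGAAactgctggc
Ccnb2: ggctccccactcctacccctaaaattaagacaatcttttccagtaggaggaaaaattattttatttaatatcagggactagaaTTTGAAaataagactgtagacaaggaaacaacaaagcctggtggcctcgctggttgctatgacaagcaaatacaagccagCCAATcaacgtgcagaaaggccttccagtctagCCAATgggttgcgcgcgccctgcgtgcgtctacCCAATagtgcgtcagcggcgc
Cdc20: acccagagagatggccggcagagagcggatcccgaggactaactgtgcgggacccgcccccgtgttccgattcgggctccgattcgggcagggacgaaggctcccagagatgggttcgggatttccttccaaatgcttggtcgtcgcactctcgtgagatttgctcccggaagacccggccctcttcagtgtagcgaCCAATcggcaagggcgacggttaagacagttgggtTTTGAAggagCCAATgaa
Cenpa: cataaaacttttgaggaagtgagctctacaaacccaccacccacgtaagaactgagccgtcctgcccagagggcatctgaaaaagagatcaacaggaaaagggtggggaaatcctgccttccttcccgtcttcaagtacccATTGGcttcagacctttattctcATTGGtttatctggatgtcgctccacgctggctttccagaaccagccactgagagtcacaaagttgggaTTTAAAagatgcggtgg
Mki67: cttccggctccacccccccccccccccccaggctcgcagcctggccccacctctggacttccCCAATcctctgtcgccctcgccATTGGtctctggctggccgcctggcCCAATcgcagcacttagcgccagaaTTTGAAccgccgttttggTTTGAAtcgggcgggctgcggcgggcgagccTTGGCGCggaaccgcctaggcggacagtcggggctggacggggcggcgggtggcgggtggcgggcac

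All 5 of these windows hold both a CHR and a CCAAT match, and those of Cdk1 and Mki67 hold an E2F match as well. The S phase genes shown are Mcm6 (chr1:128359706-128359955 on the minus strand), chosen after its value was seen, and Pcna (chr2:132253181-132253430 on the minus strand), Rrm1 (chr7:102441445-102441694 on the plus strand) and Mcm7 (chr5:138171884-138172133 on the minus strand), which had the most counts among S phase genes with a match.
Mcm6: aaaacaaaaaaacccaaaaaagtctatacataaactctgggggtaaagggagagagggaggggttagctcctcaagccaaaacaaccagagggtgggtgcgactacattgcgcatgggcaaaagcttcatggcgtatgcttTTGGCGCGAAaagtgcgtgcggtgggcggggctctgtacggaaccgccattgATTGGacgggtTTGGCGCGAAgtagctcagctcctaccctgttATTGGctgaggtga
Pcna: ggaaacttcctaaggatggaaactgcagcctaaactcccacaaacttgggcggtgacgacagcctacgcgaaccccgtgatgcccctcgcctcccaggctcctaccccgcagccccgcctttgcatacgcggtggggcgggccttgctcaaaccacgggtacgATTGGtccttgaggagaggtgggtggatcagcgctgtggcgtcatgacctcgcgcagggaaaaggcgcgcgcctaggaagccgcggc
Rrm1: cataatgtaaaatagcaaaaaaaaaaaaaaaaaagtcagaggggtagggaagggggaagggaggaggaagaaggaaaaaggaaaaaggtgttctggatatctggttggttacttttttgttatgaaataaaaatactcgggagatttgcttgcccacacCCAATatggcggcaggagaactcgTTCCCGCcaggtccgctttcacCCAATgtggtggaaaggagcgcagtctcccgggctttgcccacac
Mcm7: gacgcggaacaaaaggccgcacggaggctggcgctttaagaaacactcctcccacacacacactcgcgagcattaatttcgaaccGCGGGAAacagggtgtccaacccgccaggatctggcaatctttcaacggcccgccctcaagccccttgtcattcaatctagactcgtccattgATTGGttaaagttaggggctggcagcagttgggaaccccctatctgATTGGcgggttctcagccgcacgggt

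None of these 4 windows holds a CHR match, Mcm6, Rrm1 and Mcm7 hold E2F and CCAAT matches, and Pcna holds a CCAAT match. Over all matched genes, a CHR match stood in 12 of 19 mitosis windows (63.2%) and 3 of 11 S phase windows (27.3%), against 25.2% of the 32851 windows of the whole table. A CCAAT match stood in 17 of 19 mitosis windows (89.5%) and 8 of 11 S phase windows (72.7%), against 33.85% of all. An E2F match stood in 3 of 19 mitosis windows (15.8%) and 5 of 11 S phase windows (45.5%), against 7.89% of all. CHR and CCAAT stood together in 11 of 19 mitosis windows (57.9%), 2 of 11 S phase windows (18.2%) and 8.78% of all. A match is a string of letters and was not measured as a bound site.

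Among the S phase genes, the MCM helicase subunits Mcm6 and Mcm5 were higher in the knockout library and the other 10 genes had intervals that held 1. Mcm6 had 42 control and 103 knockout counts, or 4.34 and 10.2 CPM, a ratio of 2.35 (1.63 to 3.46). Mcm5 had 40 and 65 counts, a ratio of 1.56 (1.04 to 2.37). The 6 subunits load onto DNA together as 1 ring, yet their ratios were spread from 0.787 for Mcm4 to 2.35 for Mcm6. Mcm4 had 61 and 50 counts, so it was lower by value, with an interval of 0.530 to 1.16. Mcm2 had 51 and 63 counts and Mcm3 64 and 83, ratios of 1.19 and 1.25. Mcm7, which had the most counts of the helicase genes, had 180 and 200 counts and a ratio of 1.07 (0.868 to 1.31). The helicase genes summed to 438 and 564 counts, a ratio of 1.24 (1.09 to 1.40), and 59.3 of the 108 counts by which the knockout library exceeded the scaled control came from Mcm6.

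The remaining S phase genes all had intervals that held 1, which were wide for Rrm2 and Tk1. Pcna, the sliding clamp, was the most abundant of all 35 genes per length, at 36.65 and 37.45 FPKM, and its 428 and 455 counts gave a ratio of 1.02 (0.892 to 1.17). The clamp also serves DNA repair, so its transcript is not limited to dividing cells. Rrm1, the large subunit of ribonucleotide reductase, had 312 and 311 counts, a ratio of 0.957 (0.815 to 1.12). Rrm2, the small subunit that is made in S phase, was near the lower end of the list with 14 and 13 counts, a ratio of 0.892 (0.386 to 2.04). Tyms, the thymidylate synthase, had 393.53 and 380.09 expected counts, which include reads divided with other genes, and a ratio of 0.927 (0.802 to 1.07). Tk1, the thymidine kinase of dividing cells, had 15 and 12 counts, a ratio of 0.768 (0.328 to 1.76). The 4 nucleotide genes together had a ratio of 0.936 (0.843 to 1.04). E2f1, a transcription factor that switches on S phase genes, had 59.5 and 64.8 expected counts, in part divided with other genes, and a ratio of 1.05 (0.721 to 1.503). Without the helicase the S phase sum had a ratio of 0.971 (0.897 to 1.05).

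The mitosis genes were much lower in level than the S phase genes. Their median level was 0.35 FPKM (control) and 0.77 FPKM (knockout), against 2.06 and 2.79 FPKM for the S phase genes, and 14 of the 23 were below 1 FPKM in both libraries. In the control library 15 of the 23 had fewer than 20 counts. By value 19 of the 23 were higher in the knockout library and 4 were lower, where 47.3% of all listed genes were higher. The interval lay above 1 for 10 genes, below 1 for 1 gene, Cenpa, and held 1 for 12, where 14.5% of all listed genes had an interval above 1 and 17.4% below. The plot of CPM by gene shows the mitosis genes spread over a range from 0.103 to 10.1 CPM in the control library. The wider gaps between libraries lie at the lower end, where counts were fewest and intervals widest.

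**Figure D2:**
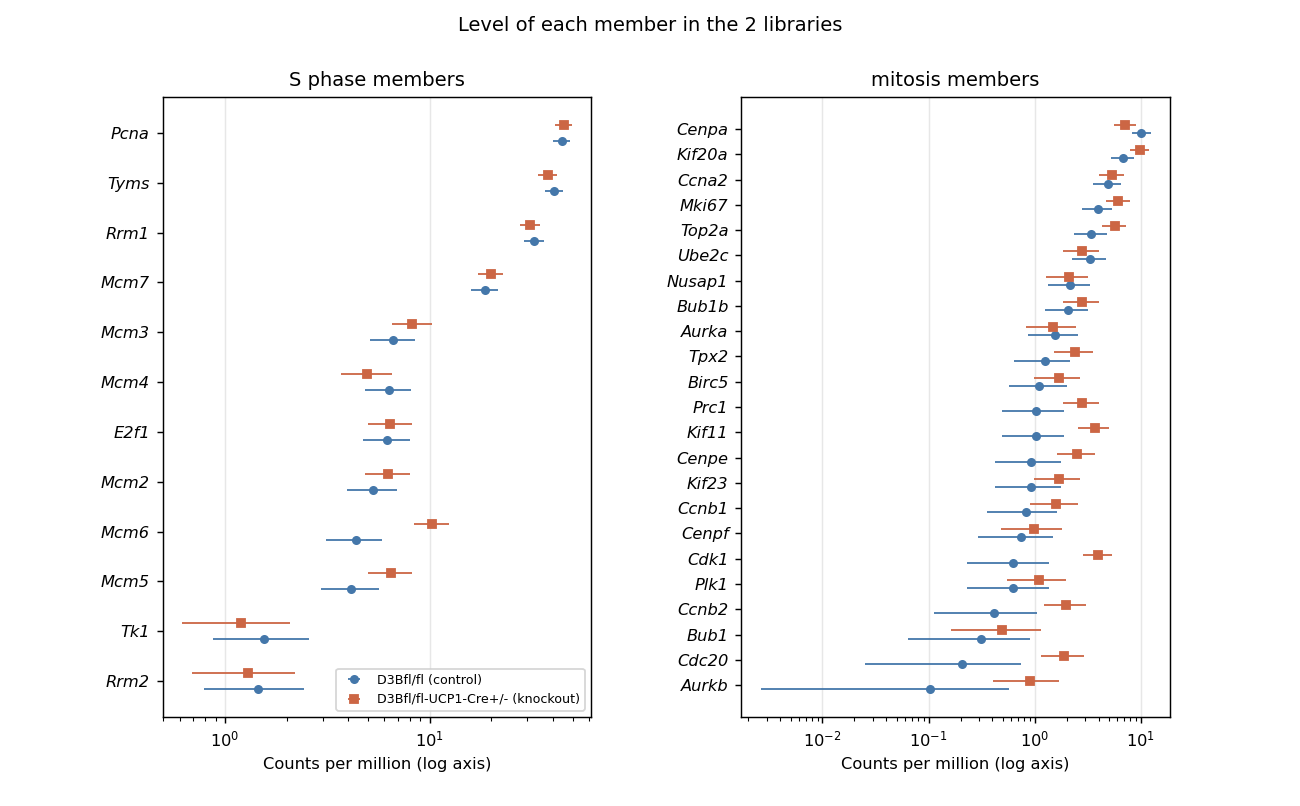
Level of each S phase gene (left) and mitosis gene (right) in CPM on a log axis, in the control library (blue circles) and the knockout library (orange squares), with exact 95% Poisson intervals for counting error. Pcna, Tyms and Rrm1 overlap between libraries, while Mcm6, Cdk1, Ccnb2, Kif11 and Cdc20 lie to the right in the knockout library.

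Cdk1 and the cyclins, the engine of mitotic entry, had the largest ratio of the roles. Cdk1 had 6 control and 40 knockout counts, or 0.621 and 3.97 CPM, a ratio of 6.40 (2.70 to 18.5). Ccnb2, a B-type cyclin, had 4 and 20 counts, a ratio of 4.80 (1.61 to 19.3). Ccnb1, the other B-type cyclin, had 8 and 16 counts, and its ratio of 1.92 had an interval of 0.775 to 5.18. Ccna2, cyclin A, which also acts in S phase, had more counts than these 3 genes in both libraries, 47 and 54, and was level with a ratio of 1.10 (0.732 to 1.67). Over the 4 genes the sum went from 65 to 130 counts, a ratio of 1.92 (1.42 to 2.63).

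Genes of the spindle and its midzone were higher as a sum, from 128 to 226 counts, a ratio of 1.70 (1.36 to 2.12). Kif11, the motor that pushes the spindle poles apart, had 10 and 37 counts, a ratio of 3.55 (1.73 to 8.01). Prc1, which bundles the midzone microtubules, had 10 and 28 counts, a ratio of 2.69 (1.27 to 6.203). Kif20a, a midzone motor, had the most counts of this group with 66 and 99, a ratio of 1.44 (1.04 to 1.997). Tpx2, an activator of Aurora A on the spindle, went from 12 to 24 counts and Kif23, a midzone motor of cytokinesis, from 9 to 17, both with intervals that held 1. Nusap1, a microtubule-bundling protein, had 21 counts in each library.

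Mitotic kinases and checkpoint genes summed to 55.6 and 84.99 counts, a ratio of 1.47 (1.03 to 2.08), and rested on few counts per gene. Aurkb, the Aurora kinase of the chromosomal passenger complex, had 1 and 9 counts, a ratio of 8.64 with an interval of 1.197 to 379. Birc5 (survivin), its partner in that complex, had 10.6 and 17.0 expected counts, in part divided with other genes, and a ratio of 1.54 (0.656 to 3.50). Aurka, the Aurora kinase of the spindle poles, had 15 counts in each library. The Polo kinase Plk1 had 6 and 11 counts, and the checkpoint kinases Bub1 and Bub1b had 3 and 5 and 20 and 28 counts. None of these 3 had an interval that excluded 1.

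Of the genes that end mitosis, Cdc20, which activates the anaphase-promoting complex, had 2 control and 19 knockout counts, a ratio of 9.12 (2.20 to 80.8). Ube2c, the ubiquitin-conjugating enzyme of that complex, had 32 and 28 counts and a ratio of 0.840 (0.487 to 1.44). Of the chromosome genes, Mki67, the source of the Ki-67 antigen, had 38 and 62 counts, a ratio of 1.57 (1.03 to 2.41). Top2a, the topoisomerase that untangles sister chromatids, had 33 and 57 counts, a ratio of 1.66 (1.06 to 2.63).

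The centromere genes did not move together. Cenpa, the histone H3 variant of centromeres, was the mitosis gene with the most counts, 98 in the control and 72 in the knockout library, or 7.89 and 5.57 FPKM, and was lower with a ratio of 0.705 (0.513 to 0.966). Cenpe, a kinetochore motor, was higher with 9 and 25 counts, a ratio of 2.67 (1.204 to 6.49). Cenpf, a kinetochore protein of G2 and mitosis, had 7.2 and 9.99 expected counts. Because Cenpa held 21.0% of the control mitosis counts, the mitosis ratio without it was 1.67. Leaving out each of the 23 genes in turn gave mitosis ratios from 1.40, without Cdk1, to 1.67. The 5 genes with the most added counts, Cdk1, Kif20a, Kif11, Top2a and Mki67, held 59.8% of the surplus of 227 counts, and the other 18 genes had a ratio of 1.28 (1.10 to 1.48). The promoters of Cenpa and of Ube2c, whose ratio of 0.840 had an interval that held 1, hold CHR and CCAAT matches. Those of Cdk1, Ccnb2, Cdc20 and Kif11 do as well. A link between these matches and the ratios was not tested.

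**Figure D3:**
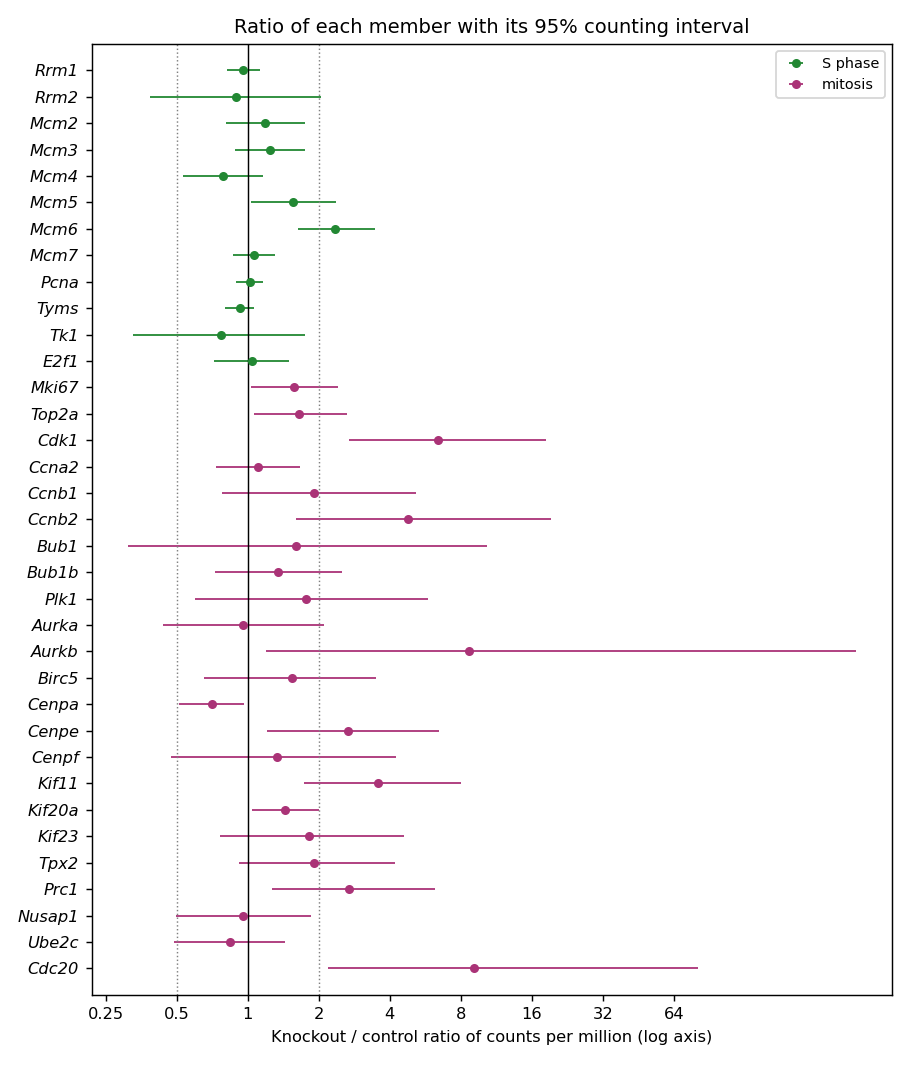
Knockout over control ratio of CPM for each S phase gene (green) and mitosis gene (purple) on a log axis, with exact 95% counting intervals; the solid line marks 1 and the dotted lines 0.5 and 2. Among S phase genes Mcm6 at 2.35 and Mcm5 at 1.56 have intervals above 1, and the widest intervals, such as that of Aurkb, belong to genes with under 10 control counts.

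By a rule of size, 7 of these genes were called higher and 0 lower in the knockout library. A gene was read when its counts in both libraries summed to at least 20, and it was called when the ratio reached 2 or fell to 0.5 or below with an interval clear of 1. Of the 35 genes 31 reached 20 summed counts, and Bub1, Plk1, Aurkb and Cenpf did not. Cdk1, Ccnb1, Ccnb2, Cenpe, Kif23 and Cdc20 reached it with fewer than 10 control counts, that is, through the library in which they were high, so the counts that follow are a description and not support for a direction. Of the 31, 7 were called 2-fold higher (Mcm6, Cdk1, Ccnb2, Cenpe, Kif11, Prc1 and Cdc20) and 0 lower, where 3.0% of 12678 genes were called higher and 2.04% lower. At 1.5-fold 10 were called higher, the same 7 with Mcm5, Mki67 and Top2a, and 0 lower, where 6.78% of all genes were called higher and 5.66% lower. Genes with few counts are called more often, and among the 4018 genes with 20 to 200 summed counts 7.62% were called 2-fold and 12.8% 1.5-fold higher, against 7 and 10 of the 27 listed genes in that range. The median log2 ratio of the 31 genes was 0.43 beside -0.03 for all 12678, and it was 0.05 for the 12 S phase genes and 0.73 for the 19 mitosis genes read. On log2(FPKM + 1) with at least 1 FPKM in either library, which 20 of the 35 genes reached, 0 were past 2-fold and 4 past 1.5-fold. Of these 20, Cdk1, Ccnb2, Cdc20 and Top2a reached 1 FPKM only in the knockout library, and Tk1 only in the control library. These counts too are a description and not support for a direction. Among genes with at least 100 summed counts, 1 was past 2-fold and 3 past 1.5-fold. For neither of these filters was the share over all genes computed, so these counts have nothing to be read against.

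Other genes of mitosis, from a list written for this comparison, did not show the same shift in their sum. Of 65 such genes 63 were listed, and they summed to 2128 and 2196 counts, a ratio of 0.991 (0.933 to 1.05). Pttg1 (securin, which delays the separation of sister chromatids), chosen after its value was seen, held 34.97% of the control counts. It had 744 and 624 counts, a ratio of 0.805 (0.723 to 0.897). The other 62 genes had a ratio of 1.09 (1.01 to 1.17). By value 41 of the 63 were higher in the knockout library, where 47.3% of all listed genes were higher. Of the 36 with at least 20 summed counts 1 was called 2-fold higher and 1 lower, close to the 3.0% and 2.04% of all genes. The median log2 ratio of the 36 was 0.12. Kif20b, a kinesin of cytokinesis, had 8 and 32 counts, a ratio of 3.84 (1.73 to 9.65). Sgo2a, a shugoshin that guards centromeric cohesion, had 36 and 15 counts, a ratio of 0.400 (0.203 to 0.749). Foxm1 and Mybl2, transcription factors of mitosis genes, had 8 and 18 and 9 and 20 counts, both with intervals that held 1.

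Other replication genes were slightly lower as a sum. The 54 listed of 55 summed to 5662 and 5471 counts, a ratio of 0.928 (0.894 to 0.963). Of the 48 with at least 20 summed counts, 16 had a ratio above 1 and 32 below, where 46.7% of all such genes were above 1. By the 2-fold rule 1 was called higher and 4 lower, beside 3.0% and 2.04% of all genes. The median log2 ratio of the 48 was -0.09. Cdc7, the kinase that fires origins, had 50 and 24 counts, a ratio of 0.461 (0.271 to 0.764), while Dbf4, its activating subunit, had 8 and 21 counts, a ratio of 2.52 (1.07 to 6.58). Pole, a leading-strand polymerase, had 25 and 12 counts, a ratio of 0.461 (0.211 to 0.952), and Wdhd1, a replisome adaptor, 29 and 14, a ratio of 0.463 (0.226 to 0.906).

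Upstream of these phases, 2 of the 3 D-type cyclins, which carry growth signals into G1, were called 1.5-fold higher, and CDK inhibitors went both ways. Ccnd2 had 318 and 630 counts, a ratio of 1.90 (1.66 to 2.18), and Ccnd1 196 and 337, a ratio of 1.65 (1.38 to 1.98). Ccnd3, the D-type cyclin with the most counts, chosen after its value was seen, had 771 and 880 counts, a ratio of 1.10 (0.994 to 1.21). Of the 14 G1 cyclin and CDK genes read, 0 were called 2-fold and 2, Ccnd1 and Ccnd2, were called 1.5-fold higher. Over all genes, 3.0% were called 2-fold and 6.78% 1.5-fold higher. Skp2, an F-box protein that targets p27, had 20 and 11 counts, with an interval that held 1, and Fbxw7, which targets cyclin E, had a ratio of 0.695 (0.533 to 0.902).

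Among 9 CDK inhibitors and antiproliferative genes read, 3 were called 1.5-fold lower and 1 higher, beside the 5.66% and 6.78% of all genes. Cdkn1c (p57), an imprinted inhibitor, had 479 and 176 counts, a ratio of 0.353 (0.295 to 0.420). Cdkn2c (p18) had 1362 and 814 counts, with a ratio of 0.574 (0.525 to 0.626), and Btg2 had a ratio of 0.566 (0.485 to 0.660). Cdkn2b (p15) was higher with 11 and 44 counts, a ratio of 3.84 (1.95 to 8.25). Cdkn1a (p21), chosen after its value was seen, had 1159 and 1431 counts, a ratio of 1.19 (1.10 to 1.28), above 1 but not called. The sum of the 10 genes listed had a ratio of 0.796 (0.765 to 0.829). In the RB, E2F and DREAM list E2f3, an activating E2F, had 56 and 119 counts, a ratio of 2.04 (1.47 to 2.86). It was the 1 call at 1.5-fold among 16 genes read, near the 6.78% of all genes called higher. In the same list E2f2 had a ratio of 0.704 (0.518 to 0.954), Tfdp2 0.773 (0.657 to 0.908) and the retinoblastoma gene Rb1 1.24 (1.10 to 1.40). The 15 genes of the anaphase-promoting complex and its regulators had no call at 1.5-fold, and their sum had a ratio of 0.960 (0.931 to 0.991).

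**Figure D4:**
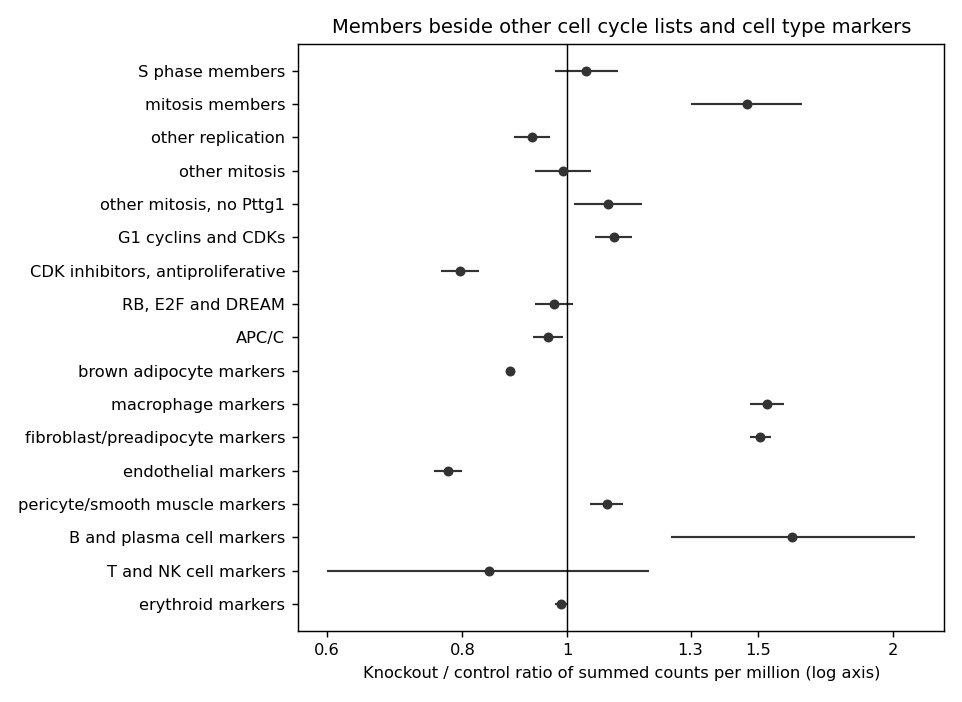
Ratio of summed CPM, knockout over control (log axis), for the S phase and mitosis genes, other cell cycle lists and cell type markers, with exact 95% counting intervals, which are narrower than the point for abundant lists. Macrophage markers at 1.53 and fibroblast and preadipocyte markers at 1.51 lie near the mitosis genes at 1.47, and endothelial markers lie at 0.775.

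Markers of cell types that can divide in this tissue also differed between the libraries. Of all genes read, 46.7% had a ratio above 1 and 6.78% were called 1.5-fold higher. Macrophage markers were higher, from 495 to 756 CPM, a ratio of 1.53 (1.47 to 1.58), with 12 of 12 above 1. Of these 8 were called 1.5-fold higher, among them Mertk with 2.57 (1.82 to 3.69) and Cd68 with 1.97 (1.54 to 2.53). Fibroblast and preadipocyte markers went from 1273 to 1920 CPM, a ratio of 1.51 (1.47 to 1.54), with 10 of 12 above 1. In that list Dlk1, a preadipocyte gene, went the other way with 40 and 14 counts, a ratio of 0.336 (0.169 to 0.631). Endothelial markers were lower, from 1015 to 787 CPM, a ratio of 0.775 (0.753 to 0.799), with 9 of 12 below 1, among them Cldn5 with 0.495 (0.444 to 0.551).

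Pericyte and smooth muscle markers had a ratio of 1.09 (1.05 to 1.13), with 8 of 12 above 1. They ranged from Kcnj8 at 0.664 (0.571 to 0.771) to Acta2 at 2.09 (1.81 to 2.43). Brown adipocyte markers had a ratio of 0.886 (0.882 to 0.891), with 9 of 12 below 1. Lymphocyte markers were low: 10 of 12 T and NK cell genes were listed and summed to 7.86 and 6.65 CPM, with Cd3e at 6 and 0 counts. B and plasma cell genes, 8 of 10 listed, summed to 10.04 and 16.19 CPM, a ratio of 1.61 (1.25 to 2.10). This higher sum rested on Cd37, with 18 and 56 counts, and Blnk, with 33 and 60, and 5 of the 8 were above 1. Erythroid markers were level at 3800 and 3753 CPM, a ratio of 0.987 (0.973 to 1.002), nearly all globin. Outside the globins, Alas2 had 353 and 378 counts, a ratio of 1.03 (0.887 to 1.19), and Epb42 had 15 and 10, a ratio of 0.640 (0.257 to 1.52). Klf1, an erythroid transcription factor, had 6 and 0 counts, under the 20 summed counts asked for above, and Gata1 was listed in neither library. Neutrophil and mast cell markers went from 31.2 to 34.0 CPM and went both ways. S100a8 had a ratio of 2.44 (1.25 to 5.05) and Mcpt4 0.581 (0.399 to 0.838). Skeletal muscle markers went from 13.8 to 15.7 CPM with Ckm listed in neither, and Schwann cell and neuron markers from 448 to 477 CPM. Mesothelial and epithelial markers were at 0.931 and 0.497 CPM, with Epcam, Msln, Upk3b and Wt1 listed in neither. The part of these cell types in the mitosis ratio was not tested.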

How the data were processed

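RNA was taken from frozen brown adipose tissue and polyadenylated RNA was made into PCR-amplified libraries, per the labels' protocols, which do not mention strand, so reads of overlapping antisense genes are not separated. Each deposited table gives, per the file headers, an expected count, an FPKM value and a transcript length per Entrez gene. The expected counts deposited by the authors are estimates in which reads that fit several genes are divided. The FPKM values deposited by the authors have 2 decimals. The submitters' processing notes name RSEM and the build mm9, and no aligner is named in the sources used here. Unlisted genes were given a count of 0. Gene names were taken from a RefSeq table of GRCm38.p6, which matched 16134 of 16174 genes. Counts more than 0.05 from whole were taken as divided.

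Counts were scaled to library totals of 9666528 (control) and 10068359 (knockout). For the intervals, the counts were rounded and an exact conditional binomial (Clopper-Pearson) interval at 95% was taken with Python 3.11.15 and SciPy 1.17.1 and tested on simulated data. The gene set, the gene lists, the rule of at least 20 summed counts and the folds of 2 and 1.5 were chosen with earlier results of these data known. All 35 genes are named, with at most 4 genes of each other list, those with the largest absolute log2 ratio among genes with 20 summed counts. Any other gene is marked in the text as picked from its values, except marker genes given to check a cell type. Alternatives were other scalings, filters, units and pseudocounts, genes left out, and the removal of trends. For the B and plasma cell list, the value of 1 marker gene is not reported here.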

Additional observations from a re-analysis of the deposited data

How the results depend on the processing

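With 1 library per genotype no replicate could be left out. The S phase ratio of 1.04 stayed inside its counting interval under all 8 alternatives run, and the median log2 ratio of the genes read, 0.43 over 31 genes, stayed above 0 under the 8 alternatives that gave a median, from 0.12 to 0.53, some of them over fewer or more genes, with a mean of 0.62. The mitosis ratio of 1.47 stayed above 1 whenever these genes were used. It was 1.25 as a sum of FPKM and 1.67 without Cenpa, the gene with the most counts, while removal of a trend with length, GC content and expression, chosen after seeing the data, gave 1.40. Other mitosis genes in place of the listed ones, also chosen after seeing the data, gave 0.991, and 1.09 without Pttg1. The mitosis to S phase ratio of ratios was 1.203 as FPKM against 1.41 as counts. The count of genes called 2-fold fell from 7 to 1 with at least 100 summed counts and to 0 on log2(FPKM + 1), and at 1.5-fold from 10 to 3 and 4. The first of these keeps fewer genes. The second changes both the scale and the genes kept, 20 of the 35, and the parts of the 2 changes were not separated. It kept Cdk1, Ccnb2, Cdc20 and Top2a only through the knockout library and Tk1 only through the control library. For neither was the share over all genes computed, so the fall cannot be set against that of other genes. Depth limits the mitosis genes, of which 15 of 23 had fewer than 20 control counts.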

Other observations

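Of the 117 listed genes on the other replication and mitosis lists, 5 were listed in the knockout library and not in the control library: Ttk, a spindle checkpoint kinase, Cenph, a kinetochore protein, Exo1, an exonuclease, Cdca5 (sororin), which protects cohesion, and Depdc1a. Together they held 20 counts in the knockout library, and Cdca5 held 8 of them. No gene of these lists was listed in the control library alone. Over all 16174 genes, 746 were listed in the knockout library alone and 684 in the control library alone. The share listed in the knockout library alone was therefore close to the same on these lists and over all genes.

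Some further genes, chosen after their values were seen, had 1 to 3 counts in the control library. Each had fewer than the 20 summed counts asked for above. Their choice fixed the direction of their ratios, which are a description and not support for a direction. Cep55, a midbody protein, had 1 and 13 counts, a ratio of 12.5 (1.87 to 530). Clspn (claspin), a replication checkpoint adaptor, had 1 and 12 counts, a ratio of 11.5 (1.70 to 493). Cdca8 (borealin), a partner of Aurkb in the chromosomal passenger complex, had 3 and 12 counts, a ratio of 3.84 (1.04 to 21.2).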
